A study of Mus musculus with 128 samples.

Results

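The change in messenger RNA from the mature oocyte to the 2-cell embryo was compared between mouse oocytes with and without Kdm4a. The comparison used all 64 libraries of the MII and 2-cell groups, 16 in each of 4 groups, of 128 libraries in the series. Per gene it takes the change in knockout (2-cell minus oocyte) minus the change in wildtype, called the interaction below, on a log2 scale. A positive interaction means that the 2-cell level, relative to the oocyte level, was higher in knockout than in wildtype. Of 41300 genes in the table, 10240 had enough counts to be tested, and they were split into those that rose, fell or did neither in wildtype.

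Each library held the polyA RNA of a single oocyte or embryo of the C57BL/6 strain, with the zona pellucida (the glycoprotein coat) removed. Oocytes were at MII, the arrested second meiotic division, and unfertilized, and 2-cell embryos were taken at 1.5 days post fertilization. The oocytes were wildtype or Kdm4a knockout, and every embryo came from Kdm4a knockout sperm: the wildtype embryos carried the maternal copy alone (m+/p-) and the knockout embryos neither copy (m-/p-). The labels do not name the mothers or the deleted exons, so p-values reflect variation among single oocytes or embryos and not among females.

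The oocyte is transcriptionally silent at MII and enters the embryo with a store of maternal messenger RNA. After fertilization this store is degraded in waves, while the embryo's own genome is switched on, in the mouse mainly in the late 2-cell stage. Kdm4a is a JmjC-domain demethylase that removes methyl groups from lysines 9 and 36 of histone H3, marks linked to silent chromatin and to transcribed gene bodies. Levels here are counts scaled to the library total (CPM), a share of each library's RNA, so a gain of some transcripts and a loss of others cannot be told apart, nor can loss of a transcript and loss of its polyA tail.

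Library totals were 2123598 to 3766643 counts in wildtype oocytes, 2496970 to 4657857 in knockout oocytes, 1756614 to 2916460 in wildtype embryos and 528377 to 3434766 in knockout embryos. The library labelled knockout oocyte replicate 15 stood apart. Its log2 levels correlated with the mean of its group at r = 0.847, against 0.977 to 0.986 for the other knockout oocytes, its share of mitochondrially encoded counts was the highest among the oocytes at 3.58%, and its summed oocyte markers (Zp1, Zp2, Zp3, Gdf9, Bmp15, Mos and Oosp1) were the lowest at 2620 CPM (group median 14327). The main counts, the split in separate libraries and some gene lists are given with and without it. The all-library split, the stages behind it and the counts of genotype differences include it throughout. The summed markers of 2-cell embryos (such as Zscan4c, Zfp352 and Tdpoz4) had a median of 43.6 CPM in wildtype and 58.9 CPM in knockout oocytes, and of 1847 and 990 CPM in the embryos, so stages followed the labels. Of 20 markers of cumulus and granulosa cells, which surround the oocyte, 12 had counts in wildtype oocytes, 11 in knockout oocytes, 17 in wildtype embryos and 16 in knockout embryos. Their summed level (CPM) ranged from 74.1 to 125 over wildtype oocytes, from 63.5 to 136 over knockout oocytes, from 32.0 to 92.0 over wildtype embryos and from 32.1 to 70.1 over knockout embryos, while Ptx3, Tnfaip6, Inha and Amh were at 0 in every oocyte library. Of 13 sperm and spermatid markers, 8 and 7 had counts in wildtype and knockout oocytes and 11 and 12 in the embryos. Their summed level was 32.5 to 63.1 and 25.1 to 60.4 CPM in the oocytes and 72.7 to 178 and 69.5 to 121 CPM in the embryos, with Prm3 at 0 in all 4 groups. The part of either list in the results was not tested.

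Kdm4a itself (ENSMUSG00000033326.15) lies on chromosome 4, 118136957 to 118180043, minus strand. Gene positions are those deposited with the counts (mm10), and gene identifiers are from GENCODE M21. The lowest, median and highest levels of Kdm4a were 4.60, 10.8 and 16.2 CPM in wildtype oocytes and 0, 1.15 and 3.76 CPM in knockout oocytes. In embryos they were 5.09, 16.5 and 22.6 CPM (wildtype) and 0, 2.26 and 6.02 CPM (knockout). Knockout libraries were low at both stages, and the ranges of the genotypes did not overlap in oocytes but did in embryos. The genotype difference was -2.98 in oocytes and -2.42 in embryos (edgeR adjusted p = 2.48e-13 and 2.79e-10). Its interaction was 0.56 (SE 0.38, edgeR adjusted p = 0.435), so no genotype-dependent change of Kdm4a itself was called. The difference of differences in log2(CPM + 1) was 0.166 (two-sided permutation test within stages, p = 0.805). That test cannot decide on an interaction, because shuffling genotype within a stage spreads the large genotype difference into the permuted values.

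Genes that rose or fell at this step mostly did so in both genotypes. From the oocyte to the 2-cell stage, 3267 genes (31.9%) rose in wildtype and 1968 (19.2%) fell (edgeR adjusted p under 0.05 and at least 1 log2 unit). In knockout, 3134 (30.6%) rose and 1907 (18.6%) fell. With library totals in place of TMM scaling factors, 4193 rose and 1314 fell in wildtype, and 4056 rose and 1278 fell in knockout. Of the wildtype risers, 2829 also rose in knockout, 438 passed neither call and 0 fell. Of the wildtype fallers, 1618 also fell, 350 passed neither call and 0 rose. Both comparisons hold 16 libraries a group and share none with each other.

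A direction of change is relative to the scaling. In the even-numbered wildtype libraries the median change of all genes was 0.23 with TMM factors, 0.40 with RLE factors and 0.71 with library totals alone, while the median interaction moved by under 0.1, from -0.03 to -0.08 and -0.04. The TMM factors ran from 0.694 to 0.963 in oocytes and from 1.01 to 1.39 in embryos, so a fitted log2 change is smaller, or more negative, than the ratio of the CPM levels printed below.

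The genotypes differed in the size of the change for 198 genes with a higher interaction (1.93% of 10240 genes tested) and 211 with a lower one (2.06%), 3.99% in either direction. Among wildtype risers, 130 had a lower interaction and 27 a higher one. Among wildtype fallers, 71 had a higher interaction and 14 a lower one. Among genes that did neither in wildtype, 100 were higher and 67 lower. With knockout oocyte replicate 15 left out, 335 genes were higher (3.23%) and 316 lower (3.04%), 6.27% in all, and all 198 higher and 194 of the 211 lower calls were among them.

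**Figure D1:**
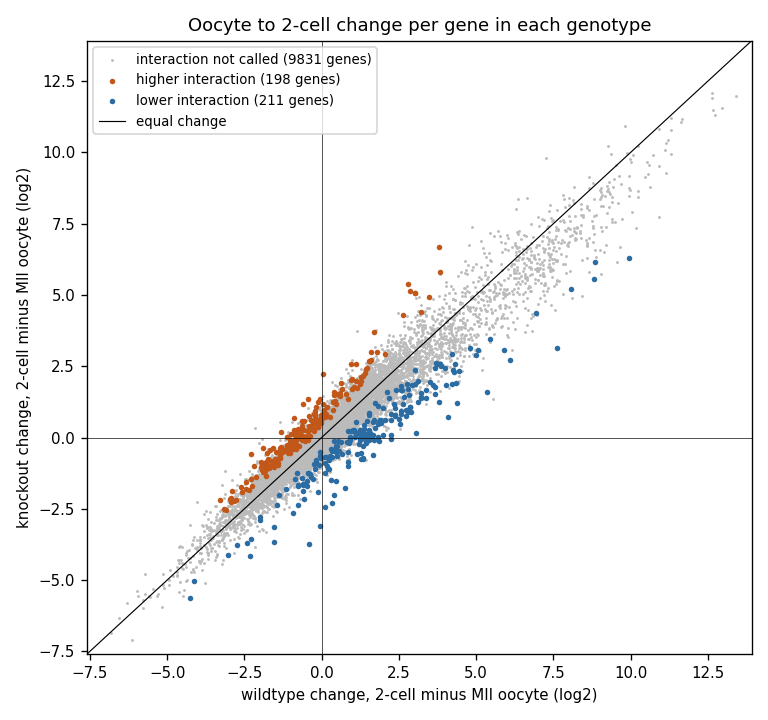
Change from MII oocyte to 2-cell embryo (log2) of 10240 genes in wildtype (horizontal) and knockout (vertical), each point a gene, with the line of equal change. The 198 genes with a higher interaction lie above the line and the 211 with a lower one below it; no gene that rose in one genotype fell in the other by the call rule.

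The 130 risers with a lower interaction had a median rise of 2.39 in wildtype and 0.90 in knockout, and 62 of them still rose by the call rule in knockout while 68 did not. The 27 risers with a higher interaction rose by a median of 1.59 in wildtype and 2.72 in knockout. The 71 fallers with a higher interaction had a median change of -1.68 in wildtype and -0.87 in knockout, and 45 of them no longer met the call for a fall. The 14 fallers with a lower interaction moved from a median of -2.15 to -3.60. These medians describe genes chosen by the same values and carry no test.

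An interaction can come from either stage, and both contributed. Of the 130 risers with a lower interaction, 72 were called lower in knockout embryos only, 37 were called higher in knockout oocytes only, 5 were both and 16 neither. Of the 71 fallers with a higher interaction, 57 were called higher in knockout embryos only, 8 lower in knockout oocytes only, 3 both and 3 neither. All 14 fallers with a lower interaction were called lower in knockout embryos only. Of the 27 risers with a higher interaction, 14 were called lower in knockout oocytes only, 6 higher in knockout embryos only, 4 both and 3 neither. Over all genes, 391 (3.82%) were called higher and 482 (4.71%) lower in knockout oocytes, and 774 (7.56%) and 1078 (10.5%) in knockout embryos. All counts of this paragraph include knockout oocyte replicate 15.

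Because the wildtype libraries enter both the direction and the interaction, with opposite sign, the split was repeated with separate libraries. The direction was set in the odd-numbered wildtype libraries alone, and the interaction was fitted on the even-numbered wildtype and all knockout libraries. Of 2258 risers, 51 were lower (2.26%) and 14 higher (0.62%), with a median interaction of -0.17. Of 1724 fallers, 33 were higher (1.91%) and 9 lower (0.522%), with a median of 0.10. Of 4551 genes that did neither, 47 were higher (1.03%) and 36 lower (0.791%), with a median of 0.02. Over all 10813 genes of that fit, 96 (0.888%) were higher and 114 (1.05%) lower, with a median of -0.03.

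The shift of the risers moved with a single library. Without knockout oocyte replicate 15, the risers had 84 lower and 49 higher calls and a median of -0.03, the fallers 69 higher and 49 lower calls and a median of 0.10, and the genes that did neither 124 higher and 72 lower calls and a median of 0.08. With odd- and even-numbered wildtype libraries exchanged, the risers had 5 lower and 3 higher calls with a median of -0.21, and the fallers 2 higher and 0 lower with a median of 0.08. Their medians without replicate 15 were then -0.10 and 0.06. The spread of the class median between libraries of a group was 0.115 for risers and 0.226 for fallers (1 SD, log2). The risers' medians were larger than their SD with replicate 15 and smaller without it. The fallers' medians were smaller than theirs in each of these fits. Each SD is that of single libraries, with replicate 15 included, while the medians contrast means of groups. The SD is therefore not the error of a median, and the comparison is no test of the shift.

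**Figure D2:**
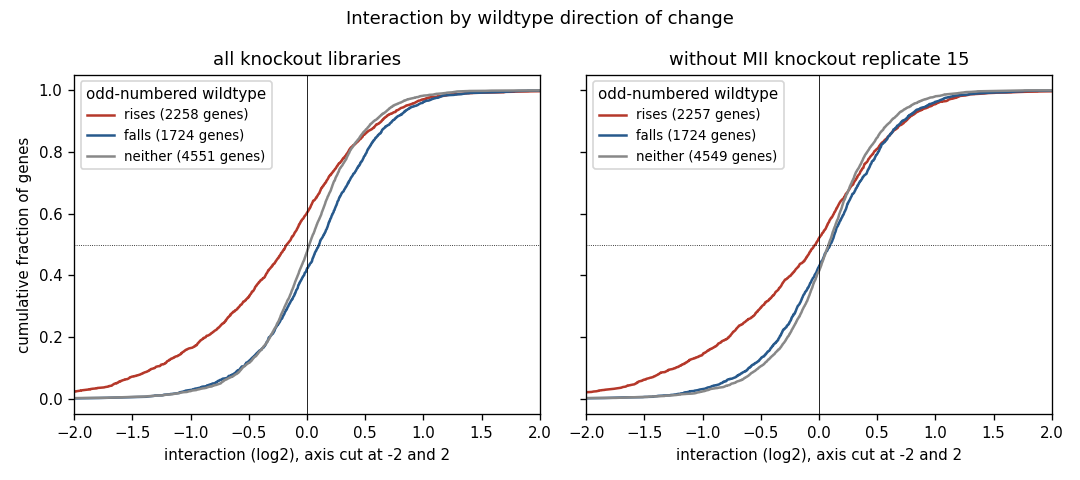
Cumulative fraction of genes (vertical) by interaction (log2, horizontal, cut at -2 and 2), for genes that rose, fell or did neither in the odd-numbered wildtype libraries, with the interaction from the even-numbered wildtype and the knockout libraries. With all libraries (left) the 2258 risers cross the midline at -0.17 and the 1724 fallers at 0.10; without knockout oocyte replicate 15 (right) the risers cross at -0.03, and their lower tail is longer than that of the other classes in both panels.

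Called changes were compared at matched sample size, 8 libraries a group. Of 2256 genes that rose in the odd-numbered wildtype libraries, 1899 (84.2%) were called again in the even-numbered wildtype and 1841 (81.6%) in the even-numbered knockout libraries. Of 1721 fallers, 1599 (92.9%) and 1518 (88.2%) were called. The median change of the risers was 1.85 in wildtype and 1.84 in knockout, and that of the fallers -1.87 and -1.80. These medians differed by under 0.1 log2 units between the genotypes. Knockout oocyte replicate 15 has an odd number and was not among these libraries, so the values are without it.

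The calls also moved with the replicate numbers, to which the labels give no meaning. Within replicates 1 to 8 of each group, 280 genes were higher (2.76%) and 234 lower (2.3%), 5.06% in all. Within replicates 9 to 16, 9 were higher (0.0884%) and 8 lower (0.0785%), 0.167% in all, and 17 (0.163%) and 39 (0.373%), 0.536% in all, without knockout oocyte replicate 15. Of the calls from all libraries, 197 of 197 higher and 207 of 207 lower genes tested in replicates 9 to 16 had the same direction there, but these libraries also set the calls.

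Among genes that rose in wildtype and had a lower interaction, Rcbtb2, Tmem183a, Calm2, Ska1, Nme5 and Mkrn1 had the smallest p-values. Rcbtb2 (ENSMUSG00000022106.14, chromosome 14, 73142537 to 73207843, plus strand) encodes a protein with RCC1-like repeats and a BTB domain. Its lowest, median and highest levels were 2.18, 6.51 and 11.7 CPM in wildtype oocytes, 3.28, 8.85 and 21.3 CPM in knockout oocytes, 3.88, 15.4 and 65.3 CPM in wildtype embryos and 3.62, 7.41 and 12.1 CPM in knockout embryos. Wildtype embryos were the highest and most variable group, 0 of 16 knockout embryos lay over the wildtype median, and the ranges overlapped at both stages. It changed by 1.35 (SE 0.25) in wildtype and -0.75 (SE 0.26) in knockout, an interaction of -2.10 (SE 0.36, edgeR adjusted p = 0.000244).

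Tmem183a (ENSMUSG00000042305.12, chromosome 1, 134346097 to 134361979, minus strand), a transmembrane protein gene, had levels of 3.66, 9.41 and 21.7 CPM in wildtype oocytes, 4.99, 20.1 and 68.5 CPM in knockout oocytes, 32.2, 71.4 and 104 CPM in wildtype embryos and 38.8, 51.4 and 72.4 CPM in knockout embryos. Knockout oocytes were high, with 14 of 16 over the wildtype median, and knockout embryos low, with 1 of 16 above it, while the ranges overlapped at both stages. The change was 2.37 (SE 0.21) in wildtype and 0.78 (SE 0.20) in knockout, an interaction of -1.59 (SE 0.28, edgeR adjusted p = 0.000409). Calm2 (ENSMUSG00000036438.13, chromosome 17, 87433412 to 87446935, minus strand), 1 of the genes for the calcium sensor calmodulin, showed the same order of groups, with 41.5, 141 and 285 CPM in wildtype oocytes, 37.3, 315 and 1001 CPM in knockout oocytes, 321, 608 and 1400.1 CPM in wildtype embryos and 306, 467 and 649 CPM in knockout embryos. The change was 1.83 (SE 0.24) in wildtype and 0.01 (SE 0.23) in knockout, an interaction of -1.82 (SE 0.33, edgeR adjusted p = 0.000409). Of the knockout oocytes 15 of 16 lay over the wildtype median, and on the fitted scale they stood level with the knockout embryos.

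Ska1, a component of the complex that couples kinetochores to spindle microtubules, had medians of 22.9 to 62.6 CPM (wildtype) and 30.5 to 45.2 CPM (knockout) (interaction -1.03 (SE 0.20, edgeR adjusted p = 0.00101)). Nme5, of the nucleoside diphosphate kinase family, had medians of 1.46 to 20.2 CPM (wildtype) and 3.89 to 10.3 CPM (knockout) (interaction -1.88 (SE 0.37, edgeR adjusted p = 0.00153)), and 16 of 16 knockout oocytes lay over the wildtype median. Mkrn1 (ENSMUSG00000029922.15, chromosome 6, 39397804 to 39420462, minus strand), a makorin RING-finger ubiquitin ligase, rose in both genotypes, from 3.56 to 61.1 CPM (wildtype) and 6.27 to 50.7 CPM (knockout), with changes of 3.86 (SE 0.21) and 2.52 (SE 0.20) and an interaction of -1.34 (SE 0.28, edgeR adjusted p = 0.00273). All 6 genes were higher in knockout than in wildtype oocytes by the fitted value and lower in knockout embryos, although the oocyte difference was called only in Tmem183a, Calm2, Ska1, Nme5 and Mkrn1 and the embryo difference only in Rcbtb2, Ska1, Nme5 and Mkrn1.

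The sequence around the RefSeq start site (250 bases before and 50 after) is shown for 3 of these genes and for G6pdx, which moved the other way, so that the start regions can be set beside the values. Positions are on GRCm38.p6 (mm10), sequences read 5′ to 3′ on the gene's strand, and capitals mark GGGCGG, the core of the GC box, and CCAAT, or its reverse complement ATTGG, found on either strand.
Rcbtb2, chr14:73142260-73142559, plus strand: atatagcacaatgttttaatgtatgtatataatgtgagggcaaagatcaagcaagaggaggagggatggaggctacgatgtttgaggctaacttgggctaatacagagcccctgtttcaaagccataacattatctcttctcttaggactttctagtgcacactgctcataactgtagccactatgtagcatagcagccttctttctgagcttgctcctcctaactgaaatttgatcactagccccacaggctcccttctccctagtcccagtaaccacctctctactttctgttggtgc
Tmem183a, chr1:134361950-134362249, minus strand: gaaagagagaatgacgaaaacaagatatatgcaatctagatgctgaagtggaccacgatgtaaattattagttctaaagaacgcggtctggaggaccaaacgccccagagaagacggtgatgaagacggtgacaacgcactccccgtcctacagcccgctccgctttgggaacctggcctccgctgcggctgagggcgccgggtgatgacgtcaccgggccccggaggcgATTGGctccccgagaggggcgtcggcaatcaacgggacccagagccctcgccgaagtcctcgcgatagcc
Mkrn1, chr6:39420320-39420619, minus strand: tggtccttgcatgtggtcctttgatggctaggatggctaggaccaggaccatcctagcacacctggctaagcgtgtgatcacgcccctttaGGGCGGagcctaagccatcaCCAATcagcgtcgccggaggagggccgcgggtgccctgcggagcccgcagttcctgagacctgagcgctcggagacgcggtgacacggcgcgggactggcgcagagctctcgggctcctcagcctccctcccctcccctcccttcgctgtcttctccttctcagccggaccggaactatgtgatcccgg
G6pdx, chrX:74428831-74429130, minus strand: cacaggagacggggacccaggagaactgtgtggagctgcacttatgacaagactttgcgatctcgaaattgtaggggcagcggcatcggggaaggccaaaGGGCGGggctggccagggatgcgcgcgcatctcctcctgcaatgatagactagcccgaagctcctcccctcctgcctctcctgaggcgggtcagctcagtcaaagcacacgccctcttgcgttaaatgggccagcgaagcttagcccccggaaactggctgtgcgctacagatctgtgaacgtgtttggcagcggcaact
The window of Rcbtb2 held neither motif, nor TATAAA. That of Tmem183a held 1 CCAAT on the opposite strand, that of Mkrn1 held 1 GGGCGG and 1 CCAAT, and that of G6pdx held 1 GGGCGG. Of the 27025 promoter windows in the RefSeq table, 36.1% held GGGCGG, 37.8% CCAAT, 14.2% TATAAA, 7.17% CACGTG, 7.16% GGATTA (bound by Obox and other homeodomain proteins) and 4.61% AAGGTCA (bound by Nr5a2). Of the 6742 windows of tested genes, these shares were 63.4%, 40.5%, 7.59%, 9.85%, 5.84% and 3.09%, and of the 87 windows of risers with a lower interaction 65.5%, 40.2%, 8.05%, 9.20%, 8.05% and 3.45%. The shares among these risers lay within a few percentage points of those of all tested genes.

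**Figure D3:**
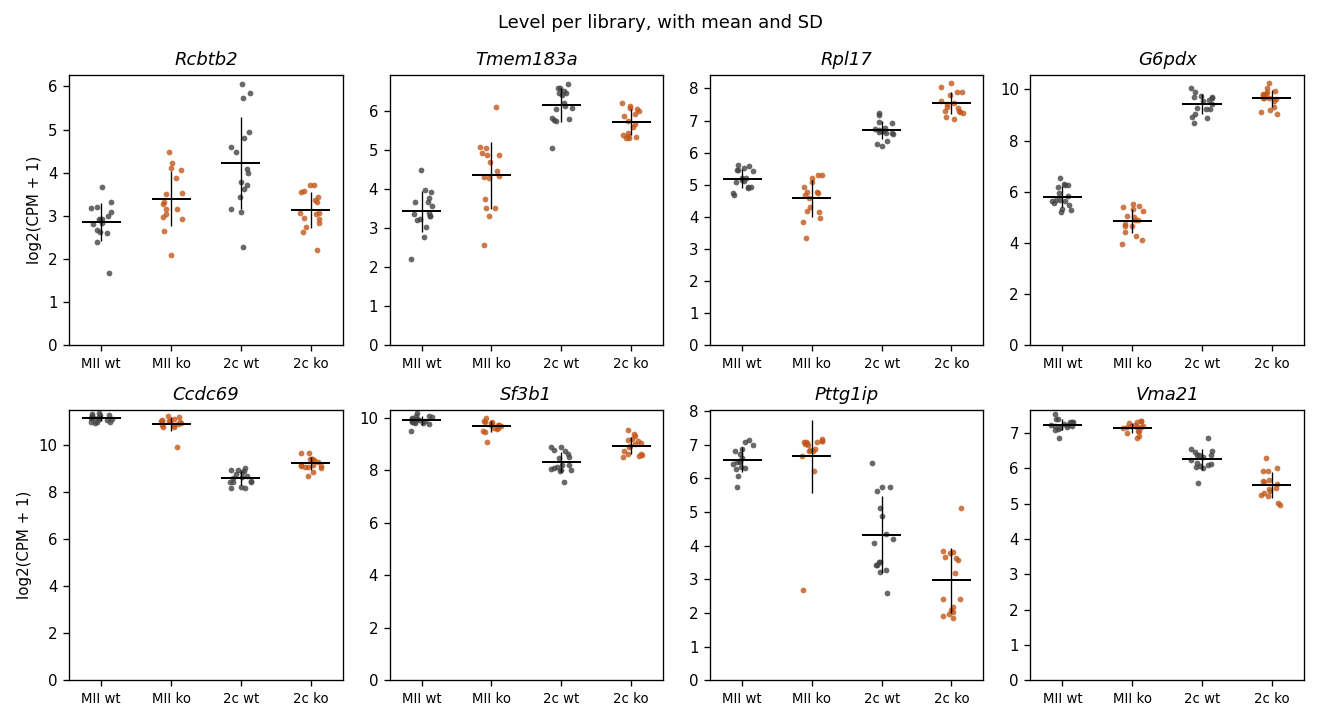
Level (log2(CPM + 1)) of 8 genes in each of 64 libraries, by group (MII oocytes and 2-cell embryos, wt wildtype and ko knockout), with mean and SD, 16 libraries a group. Rcbtb2 rises in wildtype and passes neither call in knockout. Tmem183a rises less, and Rpl17 and G6pdx more, in knockout. Ccdc69 and Sf3b1 fall less, and Pttg1ip and Vma21 more. The low point of Pttg1ip among knockout oocytes is replicate 15.

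Among genes that rose more in knockout, Rpl17, G6pdx, Klhl6 and Stx5a had the smallest p-values. Rpl17, a protein of the large ribosomal subunit, had levels of 24.9, 35.1 and 47.9 CPM in wildtype oocytes, 9.24, 25.1 and 38.5 CPM in knockout oocytes, 72.7, 102 and 151 CPM in wildtype embryos and 132, 178 and 289.6 CPM in knockout embryos. Knockout embryos were high, with 16 of 16 over the wildtype median, and knockout oocytes mostly low, with 3 of 16 above it, while the ranges overlapped. The change was 1.12 (SE 0.13) in wildtype and 2.56 (SE 0.13) in knockout, an interaction of 1.45 (SE 0.18, edgeR adjusted p = 2.75e-07). Fractions made up 78.1% of its non-zero values, as where reads are divided between copies of a gene, so its level is uncertain.

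G6pdx (ENSMUSG00000031400.10, chromosome X, 74409483 to 74429194, minus strand), which encodes glucose-6-phosphate dehydrogenase, the first enzyme of the pentose phosphate pathway, had levels of 36.3, 50.4 and 91.6 CPM in wildtype oocytes, 14.7, 28.6 and 44.7 CPM in knockout oocytes, 407, 726 and 1064 CPM in wildtype embryos and 529, 806 and 1221 CPM in knockout embryos. Knockout oocytes were low, with 0 of 16 over the wildtype median, and the ranges of the embryos overlapped widely, with 12 of 16 knockout embryos above it. It rose by 3.21 (SE 0.14) in wildtype and 4.39 (SE 0.15) in knockout, an interaction of 1.18 (SE 0.19, edgeR adjusted p = 5.94e-05), of which the genotype difference was -0.92 in oocytes and 0.27 in embryos. Klhl6, a Kelch-like protein, was near 0 in knockout oocytes, with medians of 1.92 to 22.3 CPM (wildtype) and 0.236 to 16.0 CPM (knockout) (interaction 2.28 (SE 0.43, edgeR adjusted p = 0.00086)). Stx5a, a syntaxin of the Golgi, had medians of 5.12 to 78.9 CPM (wildtype) and 2.69 to 117 CPM (knockout) (interaction 1.43 (SE 0.28, edgeR adjusted p = 0.00109)), with a genotype difference of -0.70 in oocytes and 0.73 in embryos.

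Maternal transcripts that fell less in knockout were led by Ccdc69, Sf3b1, Acp2, Ddb2, Taok3 and Oas1d. Ccdc69 (ENSMUSG00000049588.13, chromosome 11, 55049731 to 55078131, minus strand), a coiled-coil protein gene, had levels of 1994, 2289.5 and 2619 CPM in wildtype oocytes, 971, 2045 and 2394 CPM in knockout oocytes, 286, 397 and 523 CPM in wildtype embryos and 409.9, 575 and 824 CPM in knockout embryos. All 16 knockout embryos lay over the wildtype median, with some overlap of the ranges, and knockout oocytes were slightly low, with replicate 15 well under the rest. It fell by 2.95 (SE 0.09) in wildtype and fell by 2.11 (SE 0.09) in knockout, an interaction of 0.84 (SE 0.12, edgeR adjusted p = 2.17e-05). Sf3b1 (ENSMUSG00000025982.13, chromosome 1, 54985169 to 55027481, minus strand), the large subunit of the SF3b complex that recognises the branch point in splicing, had 726, 962 and 1161 CPM in wildtype oocytes, 536, 837 and 1023 CPM in knockout oocytes, 189, 294 and 478 CPM in wildtype embryos and 362, 495 and 734 CPM in knockout embryos. Again 16 of 16 knockout embryos lay over the wildtype median and the ranges overlapped at both stages. Its interaction was 0.82 (SE 0.15, edgeR adjusted p = 0.000409).

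Acp2, a lysosomal acid phosphatase, had medians of 79.1 to 31.4 CPM (wildtype) and 67.6 to 48.7 CPM (knockout) (interaction 0.90 (SE 0.17, edgeR adjusted p = 0.000671)). Ddb2, a subunit of the complex that binds ultraviolet-damaged DNA, had medians of 117 to 46.3 CPM (wildtype) and 104 to 76.5 CPM (knockout) (interaction 0.99 (SE 0.19, edgeR adjusted p = 0.00101)). The annotated spans of Acp2 (91202909 to 91214098, plus strand) and Ddb2 (91211603 to 91236982, minus strand) overlap on chromosome 2, and without the strand setting of the counting their reads cannot be told apart. Taok3, a kinase of the Ste20 family, had medians of 39.3 to 16.6 CPM (wildtype) and 27.9 to 25.2 CPM (knockout) (interaction 1.24 (SE 0.24, edgeR adjusted p = 0.00102)). Oas1d, an oocyte-expressed member of the oligoadenylate synthetase family, had medians of 1185 to 336 CPM (wildtype) and 948 to 638 CPM (knockout) (interaction 1.19 (SE 0.24, edgeR adjusted p = 0.00223)), with 16 of 16 knockout embryos over the wildtype median. Of its non-zero values 85.9% were not whole, so reads may be shared within the family.

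By the calls from all libraries, fewer maternal transcripts fell further in knockout, with Pttg1ip, Vma21, Ccdc117 and Sumo2 at the smallest p-values. This balance depended on the libraries. With direction set in separate wildtype libraries, fallers had 33 higher and 9 lower calls, and 69 and 49 without knockout oocyte replicate 15. In replicates 9 to 16 without that library they had 3 higher and 8 lower. Pttg1ip (ENSMUSG00000009291.13, chromosome 10, 77581720 to 77598732, plus strand), which encodes a binding partner of securin, had levels of 52.5, 89.8 and 141 CPM in wildtype oocytes, 5.36, 128 and 143 CPM in knockout oocytes, 4.99, 16.7 and 87.8 CPM in wildtype embryos and 2.61, 6.26 and 34.1 CPM in knockout embryos. Knockout embryos were low, with 1 of 16 over the wildtype median, and the lowest knockout oocyte was replicate 15. The interaction was -1.85 (SE 0.42, edgeR adjusted p = 0.00693) and -1.95 without that library. Vma21 (ENSMUSG00000073131.12, chromosome X, 71815924 to 71824706, plus strand), an assembly factor of the vacuolar proton pump, had 116, 149 and 185 CPM in wildtype oocytes, 116, 144 and 162 CPM in knockout oocytes, 46.8, 76.7 and 116 CPM in wildtype embryos and 30.5, 44.2 and 78.0 CPM in knockout embryos. Oocytes of both genotypes were alike in range and knockout embryos were low, with 1 of 16 over the wildtype median (interaction -0.63 (SE 0.15, edgeR adjusted p = 0.00857)).

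Ccdc117 had medians of 541 to 34.9 CPM (wildtype) and 578 to 22.0 CPM (knockout) (interaction -0.89 (SE 0.22, edgeR adjusted p = 0.0133)). Sumo2, a small ubiquitin-like modifier, had medians of 708 to 41.1 CPM (wildtype) and 731 to 16.0 CPM (knockout) (interaction -1.39 (SE 0.36, edgeR adjusted p = 0.0177)), with 0 of 16 knockout embryos over the wildtype median. Its level was 1.19 CPM in knockout oocyte replicate 15, the lowest, against 539 CPM in the lowest wildtype oocyte, and 98.4% of its non-zero values were not whole.

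Genes that did neither in wildtype included some with changes of opposite sign in the genotypes. Stx17 (ENSMUSG00000061455.13, chromosome 4, 48124915 to 48186507, plus strand), a syntaxin of autophagosomes, had levels of 33.9, 40.6 and 52.2 CPM in wildtype oocytes, 19.6, 35.8 and 50.9 CPM in knockout oocytes, 21.5, 35.8 and 57.3 CPM in wildtype embryos and 48.3, 67.5 and 116 CPM in knockout embryos. The other 3 groups lay close together, and 16 of 16 knockout embryos lay over the wildtype median. It changed by -0.58 (SE 0.13) in wildtype and 0.59 (SE 0.13) in knockout, an interaction of 1.17 (SE 0.18, edgeR adjusted p = 5.09e-05). Nr2e1, an orphan nuclear receptor, had medians of 104 to 80.4 CPM (wildtype) and 73.6 to 109.8 CPM (knockout) (interaction 0.99 (SE 0.18, edgeR adjusted p = 0.000409)), and Ciapin1, an iron-sulfur cluster assembly factor, medians of 33.3 to 38.5 CPM (wildtype) and 30.1 to 69.5 CPM (knockout) (interaction 1.25 (SE 0.24, edgeR adjusted p = 0.00109)).

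In the other direction, Tpm4 (ENSMUSG00000031799.9, chromosome 8, 72135259 to 72153142, plus strand), a tropomyosin that binds actin filaments, had levels of 4.25, 14.6 and 56.4 CPM in wildtype oocytes, 34.6, 66.5 and 102 CPM in knockout oocytes, 5.13, 39.5 and 80.8 CPM in wildtype embryos and 3.14, 14.6 and 54.4 CPM in knockout embryos. All 16 knockout oocytes lay over the wildtype median and 1 of 16 knockout embryos did, so the genotypes changed places between the stages. It changed by 0.35 (SE 0.31) in wildtype and -2.30 (SE 0.32) in knockout, an interaction of -2.65 (SE 0.44, edgeR adjusted p = 0.00012). Fam32a (ENSMUSG00000003039.9, chromosome 8, 72219730 to 72224418, plus strand), which lies near Tpm4 on the same chromosome, had medians of 8.10 to 21.3 CPM (wildtype) and 23.6 to 16.1 CPM (knockout) (interaction -1.87 (SE 0.30, edgeR adjusted p = 5.94e-05)). Naalad2, a peptidase of the glutamate carboxypeptidase family, had medians of 58.6 to 65.3 CPM (wildtype) and 82.6 to 27.0 CPM (knockout) (interaction -1.80 (SE 0.33, edgeR adjusted p = 0.000671)), with 0 of 16 knockout embryos over the wildtype median.

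**Figure D4:**
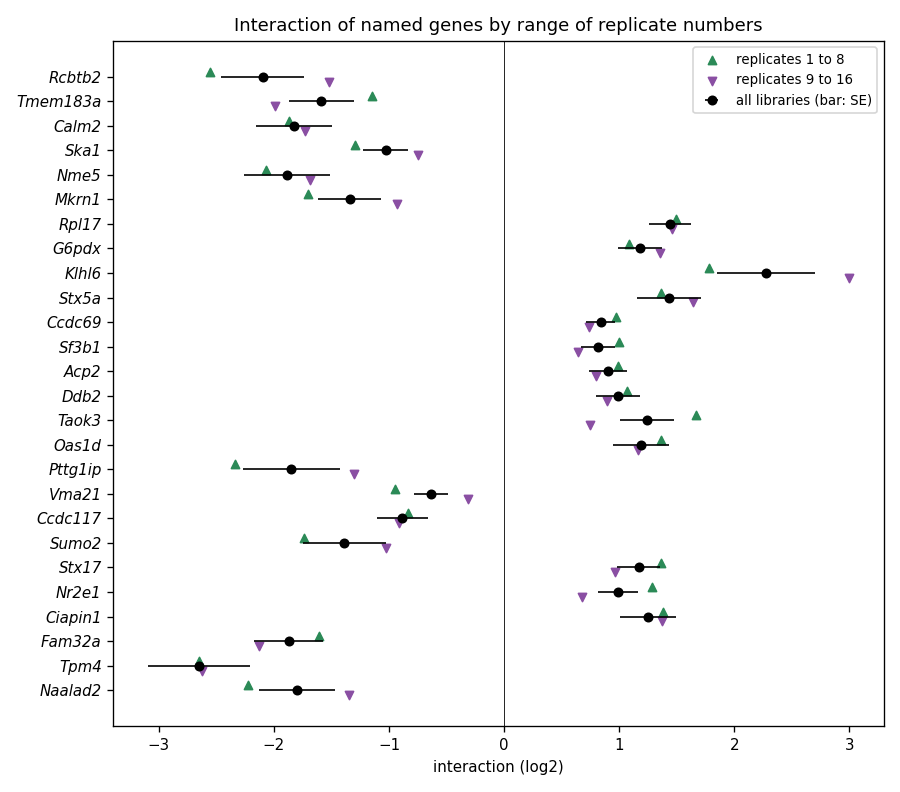
Interaction (log2, horizontal) of the 26 genes with the smallest p-values in each class of wildtype direction and sign, from all libraries (circles, bar SE), replicates 1 to 8 (upward triangles) and replicates 9 to 16 (downward triangles). The 3 values have the same sign for every gene shown; the ranges of replicates are subsets of all libraries and not independent of them.

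Gene lists for pathways of oocyte and embryo were read beside all genes, of which 1.93% were higher and 2.06% lower with a median of -0.04. Genes expressed in a burst at the 2-cell stage, the best-known output of early genome activation, had 2 of 28 tested members lower (7.14% called). The others were not called and the median was -0.97. Of the 28, 26 rose in wildtype, and the median over all wildtype risers was -0.28. In oocytes 16 of the 28 averaged under 1 CPM in wildtype, 3 were at 0 in all wildtype and 5 at 0 in all knockout oocytes, so single fitted interactions of the list depend on how the fit treats zeros. Its median genotype difference in embryos was -0.90. The called members were Tcstv3, from 36.7 to 262 CPM (wildtype) and 52.7 to 202 CPM (knockout) (medians; interaction -0.96 (SE 0.23, edgeR adjusted p = 0.0098)), and Usp17lc, a deubiquitinase, from 0 to 112 CPM (wildtype) and 0.646 to 60.2 CPM (knockout) (interaction -2.68 (SE 0.73, edgeR adjusted p = 0.0234)). Both belong to multi-copy families, and 95.3% and 79.5% of their non-zero values were not whole, so their values are uncertain. Without replicate 15, 3 members were lower and the median was -0.96.

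Of the 25 tested regulators of genome activation, such as the Obox homeobox genes and Nr5a2, edgeR called 0, with 5 at an unadjusted p under 0.05, 1 called by DESeq2 and 1 by limma. Their median was -0.03. Without replicate 15, 1 was called lower: Nr5a2, a nuclear receptor, at -0.80, against -0.80 (edgeR adjusted p = 0.0576) in all libraries, named after its value was seen. The member with the highest level, Obox2, fell in both genotypes, by 3.52 and 3.53 (interaction -0.01 (SE 0.18, edgeR adjusted p = 0.99)), with 98.4% of its non-zero values not whole.

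Maternal-effect genes, whose products the embryo inherits from the oocyte and needs, had 2 of 36 members higher, the others not called and a median of 0.20, and 5 higher without replicate 15. With all libraries 5.56% of the list were called, against 3.99% of all genes. Npm2, the oocyte nucleoplasmin, had medians of 191 to 249.6 CPM (wildtype) and 134 to 256 CPM (knockout) (interaction 0.75 (SE 0.18, edgeR adjusted p = 0.0118)). Dicer1, which cuts small RNAs from their precursors, had medians of 1103 to 292 CPM (wildtype) and 982 to 357 CPM (knockout) (interaction 0.51 (SE 0.15, edgeR adjusted p = 0.0413)). Of 45 genes of maternal mRNA storage and clearance, 1 was higher, 1 lower (4.44% called), and the median was 0.01 (2 and 2 without replicate 15). The higher one was Dcp1a, a subunit of the decapping complex, from 280.2 to 51.9 CPM (wildtype) and 291 to 74.6 CPM (knockout) (interaction 0.59 (SE 0.18, edgeR adjusted p = 0.0442)). The lower one was Zcchc11, a terminal uridylyltransferase that marks messages for decay, from 0.501 to 18.6 CPM (wildtype) and 1.33 to 7.28 CPM (knockout) (interaction -2.35 (SE 0.61, edgeR adjusted p = 0.017)), with 0 of 16 knockout embryos over the wildtype median. The deadenylase subunits of the list were not called.

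The list of oocyte coat and secreted factors also holds other oocyte genes, such as Dazl, Kit and Mos. Of its 32 tested members, 3 were higher (Oas1d, Oas1e and Dazl) and 1 was lower. The share called was 12.5%, against 3.99% of all genes, and the median was 0.02. Oas1e had medians of 837 to 323 CPM (wildtype) and 639 to 443 CPM (knockout) (interaction 0.96 (SE 0.28, edgeR adjusted p = 0.0324)), with 90.6% of its values not whole, and Dazl, a germ-cell RNA-binding protein named here after its value was seen, an interaction of 0.50 (SE 0.15). Cd9, the tetraspanin of sperm-egg fusion, was lower, with medians of 11.9 to 53.6 CPM (wildtype) and 23.2 to 43.2 CPM (knockout) (interaction -1.36 (SE 0.29, edgeR adjusted p = 0.00354)) and 14 of 16 knockout oocytes over the wildtype median.

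Spindle and chromosome segregation genes had 7 of 53 members higher and 3 lower, 18.9% called against 3.99% of all genes, and a median of 0.05. Ccnb1, cyclin B1, which drives entry into division, went from 7535 to 4254 CPM (wildtype) and 7315 to 7310.1 CPM (knockout) (interaction 0.67 (SE 0.17, edgeR adjusted p = 0.0177)), and 16 of 16 knockout embryos lay over the wildtype median. Cdca8, of the chromosomal passenger complex, had medians of 161 to 158 CPM (wildtype) and 142 to 191 CPM (knockout) (interaction 0.56 (SE 0.14, edgeR adjusted p = 0.0115)). Of the non-zero values of Ccnb1 96.9% were not whole, and of those of Cdca8 87.5%, so their levels are uncertain. Kif2c, a microtubule-depolymerising kinesin, was lower, with medians of 40.7 to 31.2 CPM (wildtype) and 66.6 to 22.1 CPM (knockout) (interaction -1.29 (SE 0.33, edgeR adjusted p = 0.0167)). Knockout oocyte replicate 15 had 0 CPM of Kif2c, and its interaction was -1.37 without replicate 15. Of 47 DNA replication genes 1 was higher (2.13% called), the others were not called, and the median was 0.25 (3 higher and 1 lower without replicate 15). It was Cdc45, a helicase subunit, with medians of 118 to 120.4 CPM (wildtype) and 114 to 177 CPM (knockout) (interaction 0.83 (SE 0.21, edgeR adjusted p = 0.0138)).

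Heat shock proteins and chaperones had 6 of 41 members higher and 1 lower, 17.1% called, with a median of 0.04, and 10 higher and 3 lower without replicate 15. Several were subunits of the ring-shaped chaperonin that folds actin and tubulin: Cct2 had medians of 51.7 to 55.2 CPM (wildtype) and 32.4 to 79.7 CPM (knockout) (interaction 0.96 (SE 0.20, edgeR adjusted p = 0.00244)) and Cct8 of 859.7 to 334 CPM (wildtype) and 754 to 448 CPM (knockout) (interaction 0.88 (SE 0.19, edgeR adjusted p = 0.00326)). Dnajb1, a cofactor of Hsp70, had medians of 42.7 to 72.2 CPM (wildtype) and 30.1 to 105 CPM (knockout) (interaction 0.99 (SE 0.22, edgeR adjusted p = 0.0055)). Proteasome subunits had 2 of 37 members higher (5.41% called, against 3.99% of all genes), the others not called and a median of 0.14. They were Psmd9 (interaction 0.44 (SE 0.13, edgeR adjusted p = 0.0393)) and Psmc1 (interaction 0.77 (SE 0.23, edgeR adjusted p = 0.0399)).

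**Figure D5:**
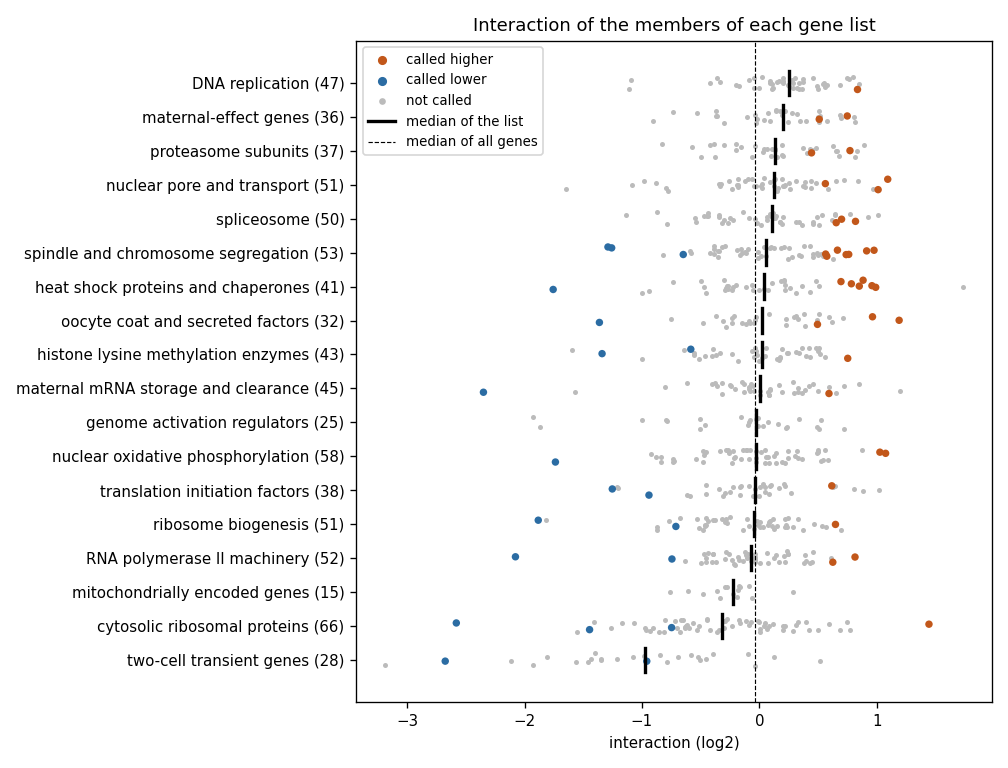
Interaction (log2, horizontal) of every tested member of 18 gene lists (number tested in brackets), called members in colour, with the median of each list (bar) and of all genes (dashed line, -0.04). The 2-cell transient genes have the lowest median (-0.97) and the DNA replication genes the highest (0.25).

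Lists of protein synthesis were called at 6.06% (cytosolic ribosomal proteins), 5.88% (ribosome biogenesis) and 7.89% (translation initiation factors), against 3.99% of all genes. Cytosolic ribosomal proteins had 1 of 66 members higher, 3 lower and a median of -0.32, and 2 and 5 without replicate 15. Of the 66, 55 rose in wildtype, and the median over all wildtype risers was -0.28, close to that of the list. The higher one was Rpl17, and the lower ones were Rpl39, from 6.46 to 53.4 CPM (wildtype) and 7.40 to 23.4 CPM (knockout) (interaction -1.45 (SE 0.38, edgeR adjusted p = 0.0197)), Rps24, from 8.74 to 65.1 CPM (wildtype) and 10.3 to 53.9 CPM (knockout) (interaction -0.75 (SE 0.22, edgeR adjusted p = 0.0324)), and Rpl41 (-2.58 (SE 0.77)), named after its value was seen. In 19 of the 66 the mean in wildtype oocytes was under 1 CPM. Ribosome biogenesis genes had 1 of 51 higher, 2 lower and a median of -0.04: Ncl, nucleolin, was higher (interaction 0.65 (SE 0.16, edgeR adjusted p = 0.0115)), and Polr1d, a subunit of RNA polymerases I and III, and Ubtf, a ribosomal DNA transcription factor, were lower (interactions -0.71 (SE 0.19) and -1.88 (SE 0.57), edgeR adjusted p = 0.0213 and 0.0418). Ubtf rose in wildtype and was not called in knockout, with medians of 2.00 to 8.18 CPM (wildtype) and 1.34 to 1.37 CPM (knockout).

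Translation initiation factors had 1 of 38 higher, 2 lower and a median of -0.04. Eif2b1, of the guanine nucleotide exchange factor for eIF2, was higher, from 1042 to 538 CPM (wildtype) and 917 to 739.6 CPM (knockout) (interaction 0.62 (SE 0.13, edgeR adjusted p = 0.00326)), and the related eIF3 subunit genes Eif3j1 and Eif3j2 were lower (interactions -0.94 (SE 0.26) and -1.25 (SE 0.31), edgeR adjusted p = 0.0234 and 0.0115). These 2 genes are similar in sequence and may share reads. Without replicate 15 the interaction of Eif3j1 was -0.55, a smaller value that was still called.

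Spliceosome genes had 3 of 50 higher (6% called, against 3.99% of all genes), the others not called and a median of 0.11. All 3 belong to the U2 particle: Sf3b1, given above, Sf3b2 (interaction 0.70 (SE 0.17, edgeR adjusted p = 0.00934)) and Sf3a3 (interaction 0.65 (SE 0.20, edgeR adjusted p = 0.0493)). RNA polymerase II machinery had 2 of 52 higher, 2 lower (7.69% called) and a median of -0.07. The higher ones were Polr2g, a polymerase subunit (0.63 (SE 0.17)), and Gtf2b, the initiation factor TFIIB (0.82 (SE 0.23)), and the lower ones Polr2m (-2.08 (SE 0.44)) and Taf2, a TFIID subunit (-0.74 (SE 0.22), named after its value was seen). Nuclear pore and transport genes had 3 of 51 higher (5.88% called), the others not called and a median of 0.12. The higher ones were Cse1l, the importin-alpha export factor (1.01 (SE 0.23)), Nup35 (0.56 (SE 0.13)) and Nup93 (1.09 (SE 0.31)). Without replicate 15 the list had 3 higher and 3 lower. Nup93 had medians of 227 to 26.1 CPM (wildtype) and 273 to 61.3 CPM (knockout).

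Histone lysine methylation enzymes and readers, the family of Kdm4a, had 1 of 43 higher, 2 lower and a median of 0.02, and 4 and 3 without replicate 15. With all libraries 6.98% of the list were called, against 3.99% of all genes. Kdm3a, another JmjC-domain demethylase of H3K9, had medians of 6.72 to 30.7 CPM (wildtype) and 7.59 to 18.6 CPM (knockout) (interaction -1.34 (SE 0.38, edgeR adjusted p = 0.0291)), with 2 of 16 knockout embryos over the wildtype median. Replicates 1 to 8 alone gave Kdm3a an interaction of -0.40 and replicates 9 to 16 alone -2.27, neither of them called. Cbx3, the heterochromatin protein HP1 gamma, was lower (interaction -0.58 (SE 0.17, edgeR adjusted p = 0.032)), and Ehmt1, an H3K9 methyltransferase, higher (interaction 0.75 (SE 0.22, edgeR adjusted p = 0.0387)).

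Genes of mitochondrial respiration are encoded in both the mitochondrial and the nuclear genome. Of the 15 mitochondrially encoded genes edgeR called 0, with 2 at an unadjusted p under 0.05, 1 called by DESeq2 and 0 by limma, and a median of -0.22, and of -0.07 without replicate 15, which had the highest mitochondrial share among the oocytes. The member with the highest level, mt-Cytb, rose by 1.30 (SE 0.17) in wildtype and 1.11 (SE 0.17) in knockout (interaction -0.19 (SE 0.23, edgeR adjusted p = 0.717)), and its interaction turned to 0.13 without replicate 15. Of its non-zero values 95.3% were not whole. Nuclear oxidative phosphorylation genes had 2 of 58 higher, 1 lower (5.17% called, against 3.99% of all genes) and a median of -0.03. Ndufs3 of complex I was higher, from 12.7 to 23.7 CPM (wildtype) and 7.59 to 27.6 CPM (knockout) (interaction 1.03 (SE 0.23, edgeR adjusted p = 0.00447)), as was Sdhc of complex II (interaction 1.08 (SE 0.31, edgeR adjusted p = 0.0308)), and Cox7b of complex IV lower, from 3.23 to 51.8 CPM (wildtype) and 8.23 to 42.7 CPM (knockout) (interaction -1.74 (SE 0.40, edgeR adjusted p = 0.00836)).

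The genes that differed in their change to the 2-cell stage were followed into later embryos, which are other libraries. Knockout 8-cell replicate 4 held 419 counts and was left out, under a minimum of 100000. Knockout 8-cell replicate 7 was kept, with 18.9% mitochondrially encoded counts and 9638 genes detected, and its part in the 8-cell values was not tested. In 4-cell embryos, 8.97% of 7478 genes tested were higher in knockout and 7.46% lower. Of the 130 risers with a lower interaction, 105 were tested there: 8 (7.62%) were higher and 13 (12.4%) lower, with a median genotype difference of -0.03. Of 53 tested fallers with a higher interaction, 6 were higher and 7 lower, with a median of -0.06. In 8-cell embryos, where 8.55% of 7219 genes were higher and 3.02% lower, 3.06% of 98 such risers were higher and 3.06% lower (median -0.05), and 11.8% of 51 such fallers were higher and 1.96% lower (median 0.06). The 27 risers with a higher interaction had medians of -0.08 in 4-cell embryos (16 tested, 0 higher and 2 lower) and -0.20 in 8-cell embryos (15 tested, 0 called). The 14 fallers with a lower interaction had medians of 0.05 (12 tested, 2 higher and 0 lower) and -0.01 (11 tested, 0 called).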

How the data were processed

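The deposited values were estimated counts per gene, which the authors made by trimming with Trimmomatic 0.32, aligning with STAR 2.5.1a to mm10 and counting with featureCounts 1.5.1, per the submitters' processing notes. The file is named after GENCODE release M18 genes. Fractions made up 29.83% of the non-zero values, as where reads are divided between genes, and counts were rounded here. Among named genes given without this share above, it was high in Ccdc69 (79.7%), Nup35 (79.7%), Eif2b1 (81.25%) and Cbx3 (87.5%), so their levels are also uncertain. The labels name both a SMART-Seq v4 and a stranded SMART-Seq kit, and a strand option of the counting was not given in the sources used here. Libraries of the 4 groups held 528377 to 4657857 counts, which intervals of counting error do not fully describe because amplified reads carry no molecular identifiers. Pairs of libraries of a group differed by more than sampling noise (chi-square per gene at least 5.25).

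The 4 groups (16 libraries each) were fitted together with edgeR 4.0.16 under R 4.3.3 (TMM factors, filterByExpr, robust quasi-likelihood F test, Benjamini-Hochberg adjustment over all genes tested, threshold 0.05). A gene rose or fell at an adjusted p under 0.05 and an absolute log2 change of at least 1. Each SE printed is the absolute log2 value divided by the square root of its F statistic, an approximation of the standard error. CPM values are counts over library totals, and counts of knockout libraries above the wildtype median use them. Alternatives used DESeq2 1.42.0, limma 3.58.1, other scaling, filters, subsets of libraries, a depth covariate, a replicate block and thinning. Python 3.11.15, pandas 2.3.3, numpy 2.4.6 and matplotlib 3.10.9 did the rest, and the fit was tested on simulated data. Promoters are from RefSeq.

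The comparison, the 18 gene lists, 4 marker lists and the rule for named genes were chosen with earlier results of these data known. The rule names Kdm4a. Per class of wildtype direction and sign of a called interaction, among genes averaging 20 CPM or more in a group and with no clone or provisional symbol, it names those with the smallest p: 6 risers lower and 4 higher, 6 fallers higher and 4 lower, and 3 each way of the rest. Per list it names up to 3 called members, or the one with the highest mean.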

Additional observations from a re-analysis of the deposited data

Results flagged for a closer look

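Each result here is a difference between the change in knockout and the change in wildtype from oocyte to 2-cell embryo that passed edgeR's quasi-likelihood test of the interaction after Benjamini-Hochberg adjustment, as did 198 genes with a higher and 211 with a lower interaction among 10240. The named genes with a higher interaction (log2) were Rpl17 1.45, G6pdx 1.18, Klhl6 2.28, Stx5a 1.43, Ccdc69 0.84, Sf3b1 0.82, Acp2 0.90, Ddb2 0.99, Taok3 1.24, Oas1d 1.19, Stx17 1.17, Nr2e1 0.99, Ciapin1 1.25, Npm2 0.75, Dicer1 0.51, Dcp1a 0.59, Oas1e 0.96, Ncl 0.65, Eif2b1 0.62, Sf3b2 0.70, Sf3a3 0.65, Psmd9 0.44, Psmc1 0.77, Cdca8 0.56, Ccnb1 0.67, Cdc45 0.83, Cct2 0.96, Cct8 0.88, Dnajb1 0.99, Ehmt1 0.75, Ndufs3 1.03, Sdhc 1.08, Cse1l 1.01, Nup35 0.56, Nup93 1.09, Polr2g 0.63 and Gtf2b 0.82. Those with a lower interaction (log2) were Rcbtb2 -2.10, Tmem183a -1.59, Calm2 -1.82, Ska1 -1.03, Nme5 -1.88, Mkrn1 -1.34, Pttg1ip -1.85, Vma21 -0.63, Ccdc117 -0.89, Sumo2 -1.39, Fam32a -1.87, Tpm4 -2.65, Naalad2 -1.80, Tcstv3 -0.96, Usp17lc -2.68, Zcchc11 -2.35, Cd9 -1.36, Rpl39 -1.45, Rps24 -0.75, Polr1d -0.71, Ubtf -1.88, Eif3j2 -1.25, Eif3j1 -0.94, Kif2c -1.29, Kdm3a -1.34, Cbx3 -0.58, Cox7b -1.74 and Polr2m -2.08. No group held 4 to 10 samples, so no single-sample check of that kind was made.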

How the results depend on the processing

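The counts of 198 higher and 211 lower interactions, chosen by edgeR on all libraries, varied with the setting. They were 257 and 404 with DESeq2, 302 and 277 with limma voom, 108 and 113 without a filter (32009 genes tested), 26 and 90 with all 8 groups in one fit, 54 and 151 at an absolute log2 of at least 1, and 11 and 6 after thinning every library to the lowest total. With RLE factors they were 165 and 263, with library totals 184 and 216, with a stricter filter 232 and 214 and with a depth covariate 248 and 241. Replicates 9 to 16 gave 9 and 8, or 17 and 39 without knockout oocyte replicate 15. All libraries but that one gave 335 and 316, and all but knockout embryo replicate 13 gave 249 and 246. The cause of these differences was not tested beyond the number of genes or samples each setting leaves. The replicate number used as a replicate block gave 146 higher and 128 lower. Same-numbered libraries of different groups did not deviate together (mean r from -0.02 to 0.02). That comparison runs between groups, so it cannot tell whether a range of numbers within a group shares a batch. The labels name no such batch, and it was not tested.

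Of the 65 named genes with a called interaction, 65 kept their direction and call with DESeq2, with the depth covariate, without knockout oocyte replicate 15 and without knockout embryo replicate 13. The call was lost in 12 under the replicate block, 5 with RLE factors, 6 with library totals, 7 with limma, 19 without a filter, 35 with all 8 groups, 18 in replicates 1 to 8, 56 of the 64 tested in replicates 9 to 16 and 47 of the 57 tested after thinning, and 0 changed sign. Uncalled values changed sign: Obox2 (-0.01) was 0.010 with all 8 groups, 0.0098 without knockout embryo replicate 13 (-0.026 without knockout oocyte replicate 15), 0.35 in replicates 1 to 8 and 0.038 after thinning. For mt-Cytb (-0.19) the values were 0.18 with limma, 0.13 without knockout oocyte replicate 15 (-0.20 without knockout embryo replicate 13) and 0.47 in replicates 9 to 16 without it.

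With direction set in separate wildtype libraries, risers had 51 lower and 14 higher calls and fallers 33 higher and 9 lower. Using all wildtype libraries in both steps gave 130, 27, 71 and 14. A stricter direction (adjusted p under 0.01 and log2 of at least 2) gave 25, 7, 10 and 4, with a riser median of -0.41. Exchanging the wildtype libraries gave 5, 3, 2 and 0, or 9, 4, 8 and 4 without knockout oocyte replicate 15. Without that library alone they were 84, 49, 69 and 49, with a riser median of -0.0304. Without knockout embryo replicate 13 they were 61, 21, 46 and 11, with a riser median of -0.165. Replicates 1 to 8 gave 37, 27, 58 and 20, replicates 9 to 16 gave 0 for all 4, and without replicate 15 they gave 7 and 6 for risers and 3 and 8 for fallers, with medians that changed sign to 0.0196 for risers and -0.0381 for fallers. With library totals alone 5 fallers were lower. The stricter rule left 1879 risers and 728 fallers in wildtype and 1709 and 703 in knockout.

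Without knockout oocyte replicate 15, the share called over all genes rose from 3.99% to 6.27%. Members called rose to 4 of 47 for DNA replication, 7 of 66 for cytosolic ribosomal proteins and 1 of 25 for genome activation regulators. They rose to 13 of 41 for chaperones, 7 of 43 for histone lysine methylation enzymes and 4 of 45 for maternal mRNA storage and clearance. For maternal-effect genes they rose to 5 of 36, and for nuclear pore and transport to 6 of 51. No list was tested as a set. In simulated data at this depth and size, 82% to 86% of 4-fold and 44% to 48% of 2-fold interactions were called. Knockout embryo replicate 13, the shallowest library, gives 1.89 CPM for 1 count.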

Other observations

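Genes within 10 Mb of Kdm4a on chromosome 4 were counted, since such a region can stay linked to a targeted allele. Of 114 tested genes there, 4 had a higher and 5 a lower interaction (7.89%), against 3.99% of all genes. These genes were named after their values were seen. The higher ones were Cdc20, the activator of the anaphase-promoting complex that lies close to Kdm4a (118432901 to 118437352; interaction 0.98, SE 0.30), Sf3a3 (0.65), Cdca8 (0.56) and Ago3, an Argonaute protein (0.41). The lower ones included Zcchc11 (-2.35), Cdkn2c, an inhibitor of cyclin-dependent kinases (-1.98), Kif2c (-1.29) and Pik3r3, a regulatory subunit of PI3 kinase (-0.70). Zcchc11, Kif2c, Sf3a3, Cdca8 and Cdc20 also belong to the gene lists described in the report, and whether position or sequence near the deleted gene plays a part was not tested.

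Other called members of the spindle list were Aurkc, an Aurora kinase of oocytes (0.91), Nusap1 (0.76), Kif20a (0.74) and Ccnb2 (0.57), which were higher, and Cenpc1 (-1.26) and Cenpa (-0.65), both proteins of the centromere, which were lower. Among the chaperones, Tcp1 (0.78) and Cct5 (0.70), subunits of the same chaperonin as Cct2 and Cct8, and Hsp90ab1 (0.85) were higher and Bag1 was lower (-1.76). These were also named after their values were seen.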
